A study of Ambystoma mexicanum with 8 samples.

Results

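S100P epidermal cells are limb epidermal cells of the axolotl, Ambystoma mexicanum, in which at least 0.1% of a cell's transcripts came from S100P, a small calcium-binding protein of the S100 family. Members were chosen by measured values: cells with at least 500 genes, at least 1% of their UMIs (unique molecular identifiers, each standing for 1 captured transcript) from the keratins KRT5, KRT12, KRT15 and KRT76, and under 1% from 7 connective tissue genes (COL1A1, COL1A2, COL3A1, DCN, LUM, OGN and MFAP5). The rule found 5853 members among 33860 cells of all kinds and among 7182 epidermal cells, that is, cells that met the keratin and connective limits. The other 1329 epidermal cells, with less S100P, served as the reference and are called other epidermal cells.

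The cells came from wild-type axolotl limbs dissociated with an enzyme blend, and live cells with a DNA content of 4C, which is that of a diploid cell that has copied its DNA, were sorted before droplet 3' RNA sequencing. There were 4 libraries named Intact (replicates 1, 3, 4 and 5), taken as homeostatic limbs, and 4 named Contra (replicates 1, 2, 3 and 5), taken as systemically activated limbs sampled 14 days after an amputation; the labels do not spell Contra out. Both groups share the sort, so cells outside the 4C gate were not seen, and pairs of cells that stick together can pass the same gate. Whether libraries came from separate animals is not stated in the labels, and p-values measure the spread between these libraries.

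Vertebrate epidermis is layered. Cells of the basal layer, which sit on the basement membrane and hold on to it through integrins, express the transcription factor TP63, divide and give rise to upper layers that build desmosomes and tight junctions and face the environment. In amphibians the outer layers also secrete mucus and defence proteins. S100P was first found in human placenta and binds the membrane linker ezrin in human cells.

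Total counts per library ran from 13344968 UMIs in Intact 5 to 99777499 in Contra 3. Each library gave between 139 members (Intact 3) and 1406 members (Intact 4). In all, 135 barcode sequences occurred in more than 1 library, and 44 members carried such a barcode. Connective markers summed to between 723 and 2031 CPM (counts per 1000000 UMIs) in the members of a library, against a mean of 91877 CPM in connective cells, and none of the 15 markers was at 0 in members. Erythroid markers summed to between 36.6 and 744 CPM in members, with 2 of the markers found at 0. The summed endothelial markers reached 84.9 CPM at most and the summed macrophage markers 153.8 CPM at most in members.

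The markers given for the cells were present in the members, as the rule requires. S100P took a median of 0.32% of a member's UMIs, with quartiles of 0.189% and 0.574%. In other epidermal cells the median was 0.0603%, and in connective and remaining cells it was 0. Members held 83.3% of all S100P UMIs. KRT12 was detected in 99.8% of members and KRT76 in 99.4%. KRT12 gave the most keratin UMIs in 65.3% of members, KRT15 in 32.0%, KRT5 in 2.31% and KRT76 in 0.444%. These values chose the members and are given as a description.

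S100P had no gap at the threshold. Just outside it, 437 epidermal cells held 0.075% to 0.1% S100P, and a band of the same width just inside it held 446. Their median keratin shares were 2.13% outside and 2.34% inside, and their median ribosomal protein shares were 1.4% and 1.57%. Cells with S100P of at least 0.1% were also found outside the epidermal rule: 1.77% of connective cells (95% exact interval 1.57 to 1.99) and 16.1% of the remaining cells (15.4 to 16.8). Such intervals cover counting error only. A UMI of S100P was present in 20.3% of connective cells at a median depth of 13361 UMIs, and in 87.4% of other epidermal cells at 4057 UMIs.

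**Figure D1:**
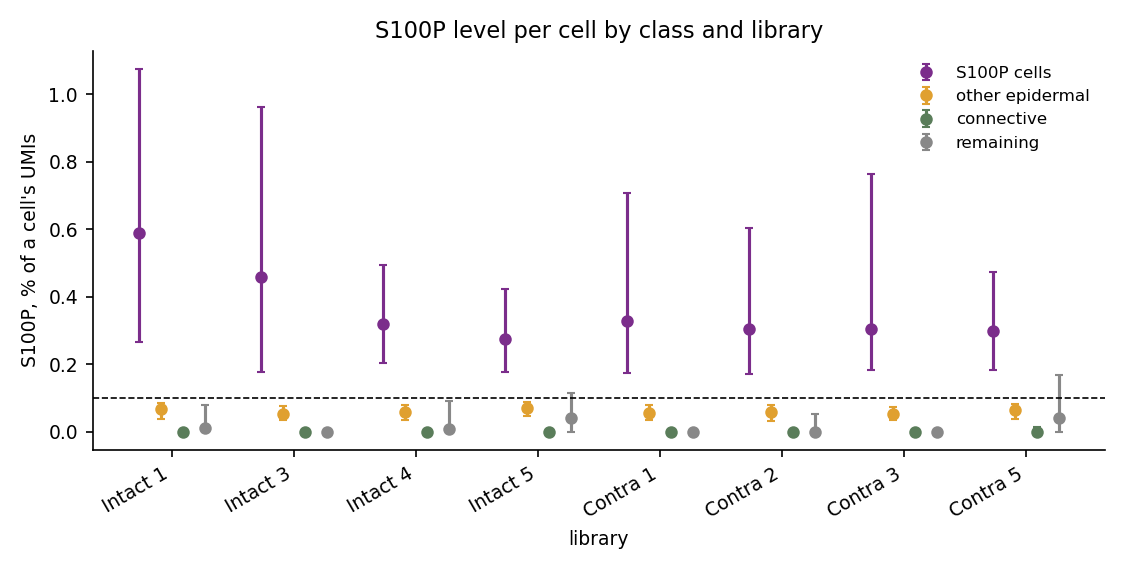
Median S100P share of a cell's UMIs (vertical axis, %) in each of 8 libraries for S100P cells, other epidermal cells, connective cells and remaining cells; bars span the quartiles and the dashed line is the 0.1% threshold. Library medians of S100P cells lie between 0.274% (Intact 5) and 0.588% (Intact 1), above those of the other classes, as the rule fixes.

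The share of epidermal cells that met the S100P threshold rose with keratin share. It was 59.1% of 1814 cells with 1 to 2% keratin, 75.6% of 1367 cells with 2 to 3%, 89.6% of 1957 cells with 3 to 5%, 97.3% of 1796 cells with 5 to 10% and 99.2% of 248 cells above 10%. The median share of UMIs from ribosomal protein genes rose in the same order, from 1.32% to 5.65%. Members therefore differed from other epidermal cells in 3 further cell measures, which accompany every comparison of these classes below. Their median ribosomal protein share was 3.26% against 1.31%, their mitochondrial share 6.15% against 9.98%, and their median depth was higher in each library. The mitochondrial share mostly follows 1 identifier. Over all cells ND5 (AMEX60DD038502) held 7871224 UMIs, and the next highest, COX1 (AMEX60DD020311), held 220951.

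Depth was compared over libraries. The median UMI counts of members were 10247, 9979, 4377.5 and 3643 in Intact 1, 3, 4 and 5, and 6552, 6443, 5855 and 3482.5 in Contra 1, 2, 3 and 5. In every library it lay above that of other epidermal cells, whose library medians ran from 3242.5 to 5162. The mean difference was 2252 UMIs per cell, with p = 0.00781 in a 2-sided exact sign-flip permutation test over 8 libraries, the smallest p that test can give, and 0.0195 after Benjamini-Hochberg adjustment over 5 exact tests. With S100P of at least 0.2% as the threshold the difference was 4336 UMIs and p was 0.0547.

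The first question was how the transcripts of S100P cells differ from those of other epidermal cells of the same library. S100P cells held more of the uroplakins, of KRT4 and KRT18, keratins of lining epithelia in mammals, of the mucus protein gene FCGBP and of ribosomal protein genes. With TMM scaling, described next, most tight junction and desmosome genes were also higher, while their medians turned slightly negative without it. TP63, the integrin gene ITGB4, the collagen gene COL7A1 and NRG1, which encodes an EGF-family ligand, were lower. At matched ribosomal share TP63 did not pass, and ITGB4 and COL7A1 were not among the genes tested. In all, 10022 of 13682 genes tested differed (73.2%), 4723 higher in S100P cells (34.5%) and 5299 lower (38.7%), at an adjusted p under 0.05 in edgeR's quasi-likelihood test on counts summed per library and class, with the library as a block. Levels below are CPM scaled by TMM (trimmed mean of M-values, which aligns the bulk of genes between samples), given as mean ± SD over 8 libraries. Without TMM scaling the median of all genes moved from -0.11 to -0.69 on the log2 scale, and 2642 genes were higher and 8306 lower.

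A comparison restricted to cells in which ribosomal protein genes took 1 to 2% of UMIs in both classes was added after the data were seen. It called 923 of 6768 genes (13.6%), of which 590 were higher (8.72%) and 333 lower (4.92%) in S100P cells, from fewer cells and fewer genes. Of its calls, 891 were also called in the whole comparison, 887 of them in the same direction. The whole comparison called 5414 of the same 6768 genes. The band's cells are part of that comparison's cells, so the calls are not independent. It is given beside the whole comparison below as the comparison at matched ribosomal share. Matched here means held within 1 to 2%, not made equal. The quartiles of the ribosomal share over all members were 1.949% and 5.785%, so the band took its members from the low end. Among members that share rose with S100P, with mean library medians of 1.93% in the part lowest in S100P and 9.48% in the highest. The band thus leans towards members with less S100P, and the part of each in the smaller folds was not tested.

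Uroplakins are membrane proteins that plate the outward face of the mammalian urinary epithelium. UPK1B reached 1362, 1291.3, 472 and 814 scaled CPM in members of Intact 1, 3, 4 and 5, and 860, 615, 561.5 and 751.5 in those of Contra 1, 2, 3 and 5. In other epidermal cells it lay between 126.5 and 255 in every library, so the classes did not overlap. The log2 fold change was 2.13 ± 0.16 (SE, adjusted p = 2.28e-09) and 0.91 ± 0.16 at matched ribosomal share (adjusted p = 2.48e-04). UPK3A had 275 ± 128 scaled CPM in S100P cells and 40.1 ± 18.8 in other epidermal cells (log2 fold change 2.71, and 1.38 at matched share). UPK3B had 97.7 ± 34.2 against 30.6 ± 8.52 (log2 fold change 1.57, and 0.74 at matched share). All 3 uroplakin genes tested were called higher in both comparisons, where 34.5% and, at matched share, 8.72% of all genes were. The uroplakins, UPK3A among them, were chosen as a set after values were seen, so this count is a description only. UPK1B and UPK3B were also picked for naming with their values known. A second UPK3A identifier had no UMI.

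KRT4 encodes a keratin of moist stratified linings and KRT18 one of simple epithelia in mammals, and neither was part of the rule. KRT4 reached 848 ± 484 scaled CPM in S100P cells and 100.2 ± 44.9 in other epidermal cells, a log2 fold change of 3.01 ± 0.15 (adjusted p = 1.75e-11). KRT18 reached 922 ± 433 against 134 ± 31.7, a log2 fold change of 2.67 ± 0.15 (adjusted p = 6.35e-11). Both stayed higher at matched ribosomal share, by 1.19 and 1.17. KRT19 and KRT17 were higher by 2.08 and 2.07 in the whole comparison, and at matched share they gave 0.39 (adjusted p = 0.101) and 0.15 (adjusted p = 0.372). Of 8 other keratin identifiers tested, 5 were higher and 2 lower, where 34.5% and 38.7% of all genes were. At matched share 2 of 4 were higher and 0 lower, where 8.72% and 4.92% of all genes were.

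**Figure D2:**
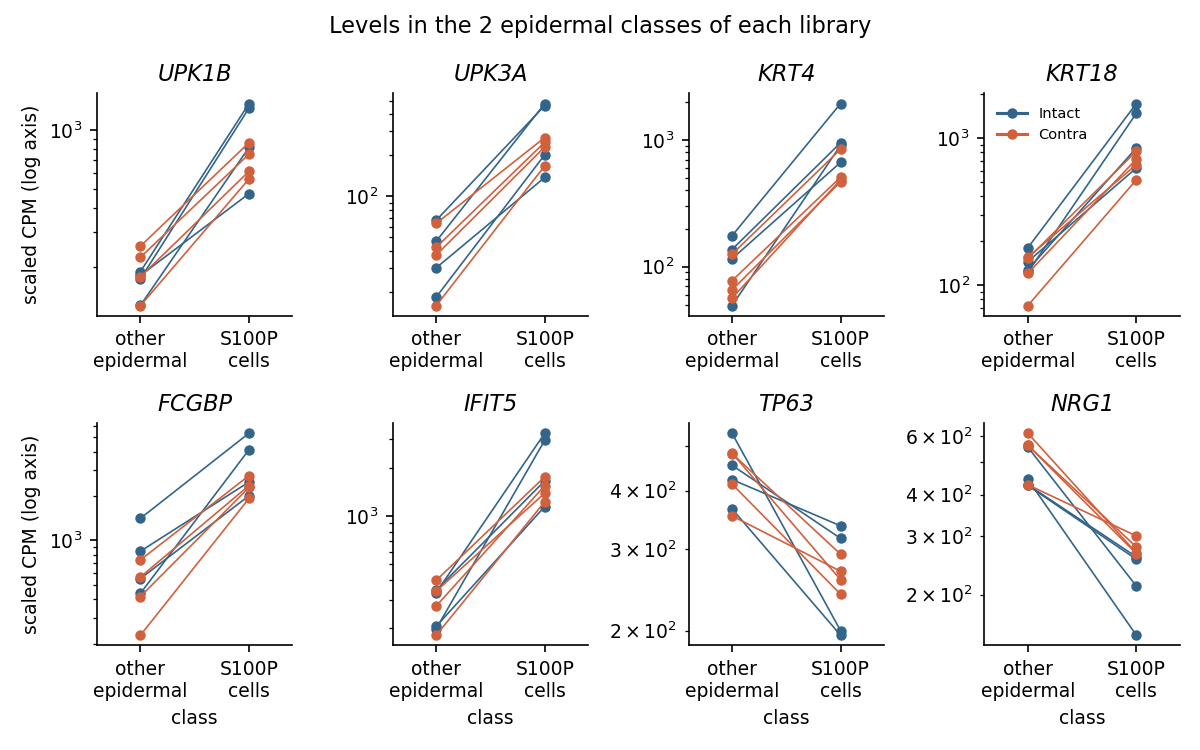
Scaled CPM on a log axis for 8 genes in other epidermal cells and S100P cells, with a line per library, in blue for Intact and orange for Contra. UPK1B, UPK3A, KRT4, KRT18, FCGBP and IFIT5 are higher in S100P cells in 8 of 8 libraries, and TP63 and NRG1 are lower in 8 of 8.

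Secretory and mucosal defence genes formed the list with the most called members at matched ribosomal share. FCGBP (AMEX60DD016032, 1 of 11 identifiers with this symbol) encodes a mucus-associated protein. Its level was 2907 ± 1194 scaled CPM in S100P cells and 650 ± 363 in other epidermal cells, a log2 fold change of 2.23 ± 0.18 (adjusted p = 4.43e-09) and of 1.47 ± 0.14 at matched share. MPEG1, a pore-forming defence protein of phagocytes in mammals, had 4919 ± 1482 against 1626 ± 358 at the identifier with the highest level (AMEX60DD007219), a log2 fold change of 1.58 and of 0.86 at matched share. MUC5AC (AMEX60DD004458, 1 of 15 identifiers), a gel-forming mucin, had 27.0 ± 31.5 against 0.430 ± 0.472, with 104.5 in Intact 1 and at most 21.8 in the other libraries. It was at most 1.075 scaled CPM in other epidermal cells and reached the filter through S100P cells alone. Of 35 secretory and mucus identifiers tested, 25 were higher and 5 lower, where 34.5% and 38.7% of all genes were. At matched share 12 of 19 were higher and 0 lower, where 8.72% and 4.92% of all genes were.

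Other genes named by the rule at matched share were B3GNT7, a glycosyltransferase (log2 fold change 1.68), CEEL (1.52), TREX2, a keratinocyte DNA exonuclease in mice (1.49), MAL, a protein of apical membrane transport (1.26), and WFDC8 of the whey acidic protein family of inhibitors (1.13). The interferon-response genes IFIT5 (1.23) and OASL (1.07), the cytokine receptor gene IL20RA (1.11), ALAS1 of haem synthesis (1.10), COQ10B (1.07) and a second MPEG1 identifier, AMEX60DD007158 (1.14), completed the 15 highest along with FCGBP, UPK3A, KRT4 and KRT18. In the whole comparison these genes were higher by 1.42 (IL20RA) to 3.28 (CEEL). IFIT5 for example reached 1871 ± 803 scaled CPM in S100P cells and 285 ± 81.5 in other epidermal cells.

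The 15 highest genes of the whole comparison were mostly of another kind. They included 7 ribosomal protein genes, 3 histone genes and the respiratory chain genes NDUFA8 and ATP5MG. RPS2 for example had 4622 ± 2125 scaled CPM against 353 ± 105 (log2 fold change 3.64), and H2AC20 had 842 ± 554 against 22.3 ± 12.8 (4.95). Others of these kinds were RPLP0, RPL17 (4.05), RPS12 (3.74), RPL24 (3.60), RPS3A (3.59), H2BC4 (4.10) and H3C14 (3.95). NDUFA8 had 42.8 ± 29.7 against 2.67 ± 2.88, and ATP5MG was higher by 3.63. MUC5AC, VMD2 (1 of 120 identifiers) and the cytokine receptor gene IL17RB were also among them, and reached the filter through S100P cells alone. VMD2 had 25.8 ± 12.6 scaled CPM against 0.945 ± 0.821 and IL17RB 21.4 ± 12.5 against 1.28 ± 1.69. In other epidermal cells MUC5AC was at 0 in 4 libraries, VMD2, IL17RB and RPLP0 in 3 each and NDUFA8 in 2, so no fold is given for these genes. Of 7 histone identifiers tested, a set picked with values known, 5 were higher and 0 lower, where 34.5% and 38.7% of all genes were. Of 136 ribosomal protein identifiers tested, chosen as a set after values were seen, 132 were higher and 2 lower, with a median of 2.73. At matched share the ribosomal total was held within 1 to 2%. There 6 of 81 ribosomal protein identifiers were higher and 0 lower, with a median of 0.11, beside 8.72% and 4.92% of all genes. RPS2 gave 0.50 (adjusted p = 1.31e-04) and H2AC20 0.49 (adjusted p = 0.222). IL1B, the inflammatory cytokine gene, was named with its values known. It had 336 ± 172 scaled CPM in S100P cells and 26.5 ± 11.1 in other epidermal cells (log2 fold change 3.48 ± 0.17), and 0.50 at matched share (adjusted p = 0.0503). Several of these symbols belong to more than 1 identifier, and reads from near-identical copies could have been split between them.

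Junction genes were mostly higher in the whole comparison. DSP, which encodes the desmosomal protein desmoplakin, had 1600 ± 204 scaled CPM in S100P cells and 843 ± 80.6 in other epidermal cells (log2 fold change 0.92 ± 0.11), and DSG2, a desmosomal cadherin, 1043.3 ± 67.2 against 742 ± 59.0 (0.49, or -0.11 without TMM scaling). Of 15 desmosome and cornified-layer genes, 12 were higher and 1 lower, where 34.5% and 38.7% of all genes were. The list's median of 0.54 became -0.06 without TMM scaling. CLDN7, a tight junction claudin, was higher by 1.57 and EPCAM, an epithelial adhesion molecule, by 1.36. Of 22 tight junction and epithelial genes, 15 were higher and 5 lower, beside the same shares of all genes. That list's median of 0.46 became -0.12 without TMM scaling. At matched share 5 of 11 desmosome genes and 4 of 19 tight junction genes were higher and none lower, beside 8.72% and 4.92% of all genes. There DSP gave 0.22, DSG2 0.28, CLDN7 0.54 and EPCAM 0.33.

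Genes of the basal layer were mostly lower. TP63 was at 196, 200.1, 336 and 316 scaled CPM in members of Intact 1, 3, 4 and 5 and at 257, 240, 292 and 268.5 in those of Contra 1, 2, 3 and 5. In other epidermal cells it lay between 353 and 532, without overlap. The log2 fold change was -0.74 ± 0.11 (adjusted p = 1.38e-05), and at matched ribosomal share it was -0.14 (adjusted p = 0.237). ITGB4, the integrin of hemidesmosomes, had 12.5 ± 6.54 against 47.2 ± 20.6 (log2 fold change -1.86), and COL7A1, the collagen of anchoring fibrils, 5.50 ± 2.78 against 24.97 ± 13.5 (-1.97). Neither was among the genes tested at matched share. PLEC, the cytolinker plectin, was higher by 0.67, with 0.07 without TMM scaling (adjusted p = 0.541) and 0.24 at matched share (adjusted p = 0.0539). Of 12 basal genes tested apart from the rule's keratins, 1 was higher and 8 lower, where 34.5% and 38.7% of all genes were. At matched share 0 of 6 were called in either direction, where 13.6% of all genes were.

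The 15 lowest genes of the whole comparison also held genes that were more abundant in the remaining cells. VWF, a clotting factor of endothelial cells, fell by 1.66 on the log2 scale, CAV1, a coat protein of membrane pits, by 1.88, and HSPG2, the basement membrane proteoglycan perlecan, by 1.72. Mean CPM without TMM scaling of these genes in the remaining cells were 1380 for VWF, 458.5 for CAV1 and 139.5 for HSPG2. Their means in other epidermal cells on the same scale were 127.5, 63.1 and 24.8, and in S100P cells 24.2, 12.3 and 4.90. COL14A1, a fibril-associated collagen, fell by 2.01, from 23.4 ± 14.3 to 5.24 ± 2.17 scaled CPM. Endothelial markers summed to 43.2 CPM in S100P cells and 164 CPM in other epidermal cells, and connective markers to 1562 and 2850 CPM. Their part in these differences was not tested. The remaining lowest genes were PRR16 (-1.72), A2M (-1.71), THSD4 (-1.70), CHK1 (-1.70, 1 of 31 identifiers), GALNT18 (-1.51), DRD3 (-1.50), SLCO3A1 (-1.47), SH3RF1 (-1.47) and EDN3 (-1.46). At matched share the lowest with one direction in every library, 1 identifier per symbol, were PIEZO1, a stretch-activated channel (-0.93), a second A2M identifier, AMEX60DD026344 (-0.88), LRCH1 (-0.72), PARVA, an integrin-linked actin binder (-0.71) and CPLANE1 (-0.67).

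With TMM scaling, transcription factors of the epidermis were mostly higher. KLF5 had 335 ± 24.2 scaled CPM against 234 ± 48.4 (log2 fold change 0.53, or -0.07 without TMM scaling). Of 21 tested, with TP63 among them, 18 were higher and 2 lower, where 34.5% and 38.7% of all genes were. Their median of 0.65 became 0.06 without TMM scaling, with 7 higher and 3 lower, beside 2642 and 8306 of all 13682 genes. At matched share 3 of 17 were higher and 0 lower, where 8.72% and 4.92% of all genes were. Among S100 genes and their binding partners, 10 of 11 were higher and 0 lower, beside 34.5% and 38.7% of all genes. S100A10 (AMEX60DD014975) was higher by 2.67 and its partner ANXA2 by 1.36; at matched share they gave 0.17 (adjusted p = 0.27) and 0.10 (adjusted p = 0.469). TFCP2L1 and ATP1B1, from the list of ionocyte and transport genes, were higher by 1.25 and 1.62, and by 0.60 and 0.52 at matched share. Of 5 genes of that list tested, 3 were higher and 1 lower, beside 34.5% and 38.7% of all genes.

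In the EGF family, NRG1 had 249 ± 46.6 scaled CPM in S100P cells and 502 ± 77.8 in other epidermal cells, a log2 fold change of -1.02 ± 0.11 (adjusted p = 4.08e-07) and of -0.33 at matched share (adjusted p = 0.00728). EGFR, the receptor, was lower by a log2 fold change of -0.50, and at matched share gave -0.00 (adjusted p = 0.984). Of 8 ligands and receptors of this family tested, 3 were higher and 2 lower, where 34.5% and 38.7% of all genes were. In the Notch list 3 of 11 were higher and 5 lower, beside the same shares of all genes. NOTCH1 was at -0.50 and JAG1 at -0.33. At matched share they gave -0.20 (adjusted p = 0.166) and -0.11 (adjusted p = 0.699). WNT7B, a secreted signal of the wound epidermis list, was at -0.81 and at matched share -0.37 (adjusted p = 0.0964). In that list 4 of 12 were higher and 6 lower, again beside 34.5% and 38.7% of all genes.

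Antigen presentation and early-response genes were mostly higher. B2M, the light chain of class I molecules, had 3796 ± 1029 scaled CPM against 1322 ± 232 (log2 fold change 1.5, and 0.36 at matched share), and CD74, the class II chaperone, was higher by 0.80, with 0.20 without TMM scaling (adjusted p = 0.1) and 0.18 at matched share (adjusted p = 0.189). In that list 12 of 17 were higher and 2 lower, where 34.5% and 38.7% of all genes were. At matched share 5 of 13 were higher and 0 lower, where 8.72% and 4.92% of all genes were. Of 21 immediate early genes, 18 were higher and 0 lower, with JUND at 1.88 and DUSP1 at 1.48. At matched share 2 of 11 were called, both higher, where 8.72% of all genes were higher, and JUND gave 0.75. In the skin lipid list 5 of 10 were higher and 3 lower, where 34.5% and 38.7% of all genes were. ELOVL1 was at 1.09 (0.22 at matched share, adjusted p = 0.0873) and ABCA12 at 0.49 (-0.12 without TMM scaling). The list's median of 0.38 became -0.20 without TMM scaling.

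Of the adrenergic receptors, which bind adrenaline and noradrenaline, ADRA1A lay between 1.33 and 3.18 scaled CPM in members and between 2.26 and 7.03 in other epidermal cells, too low for the filter of the test.

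**Figure D3:**
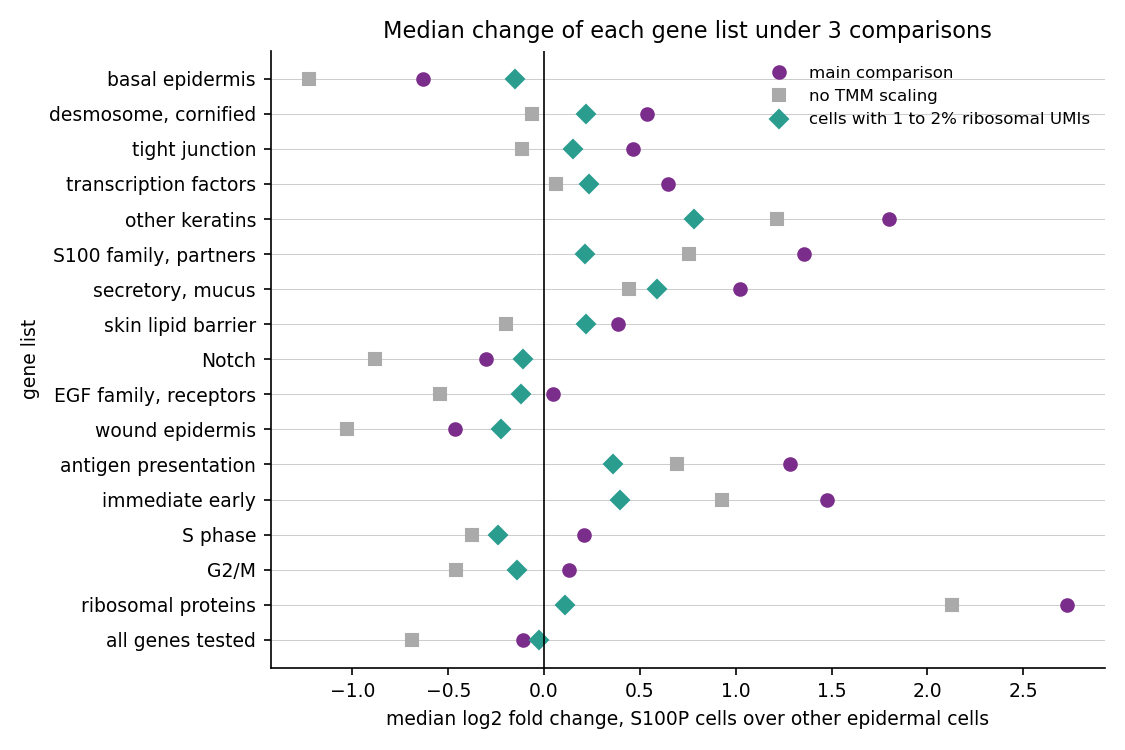
Median log2 fold change of S100P cells over other epidermal cells for 16 gene lists and for all genes tested, in the whole comparison (circles), without TMM scaling (squares) and in cells with 1 to 2% ribosomal UMIs (diamonds). The median of ribosomal protein genes is 2.73 in the whole comparison, the median of other keratins is 1.80, and at matched ribosomal share the medians of all lists shown lie between -0.24 and 0.78.

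The members also varied among themselves. Within each library they were split into equal parts by S100P share, whose medians averaged 0.157%, 0.362% and 0.867% from the lowest to the highest part. UPK1B averaged 331, 473 and 873 CPM over these parts, KRT4 224, 440.5 and 916 CPM, and FCGBP 1003, 1718 and 2935 CPM. TP63 averaged 470, 284 and 97.1 CPM, and ITGB4 24.5, 15.1 and 3.13 CPM. The order of highest against lowest part was the same in 8 of 8 libraries for each of these genes. Beside it, the mean of library medians of the ribosomal protein share went from 1.93% to 9.48%, that of the mitochondrial share from 9.42% to 2.95%, and that of UMIs per cell from 4453 to 17943. These splits use the gene of the rule and are given with no test.

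Because the sort selects cells with copied DNA, cell cycle genes were read in both classes. After drawing 2000 UMIs per cell, 73.8% ± 4.14 of members (SD, n = 8 libraries) and 66.9% ± 6.64 of other epidermal cells held at least 3 UMIs from a list of G2 and M phase genes. The share was higher in members in 8 of 8 libraries, by 6.91 percentage points (2-sided exact sign-flip permutation test, p = 0.00781, the smallest it can give; 0.0195 adjusted over 5 exact tests). Without drawing, the shares in the same cells were 93.9% and 88.6%. The difference depended on TUBB4B, a beta-tubulin gene that many cells also use outside mitosis. TUBB4B had 1572 ± 449 scaled CPM in S100P cells and 287 ± 47.9 in other epidermal cells (log2 fold change 2.42). With TUBB4B left out of the list the shares were 51.3% and 58.1%, and the difference was -6.79 points (exact permutation p = 0.0391). With 4000 UMIs drawn it was 1.28 points (exact permutation p = 0.547).

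Single cell cycle genes did not move one way. Of 51 G2 and M genes tested, 22 were higher and 15 lower, where 34.5% and 38.7% of all genes were. SMC4, a condensin subunit, gave 0.14 (adjusted p = 0.176). The list's median of 0.13 became -0.46 without TMM scaling, with 12 higher and 28 lower, beside 2642 and 8306 of all 13682 genes. Of 41 S phase genes, 17 were higher and 11 lower, beside the same 34.5% and 38.7% of all genes. CHAF1B, of the chromatin assembly complex, was lower by a log2 fold change of -0.68, with -0.33 at matched share (adjusted p = 0.0545), and MCM2, of the replicative helicase, gave 0.27 (adjusted p = 0.0609). The median of the S phase list, 0.21, became -0.38 without TMM scaling. At matched share 0 of 26 were higher and 5 lower, where 8.72% and 4.92% of all genes were.

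The next question was whether S100P cells were more or less frequent in Contra limbs. They made up 88.1%, 75.5%, 85.3% and 81.5% of epidermal cells in Intact 1, 3, 4 and 5. The shares in Contra 1, 2, 3 and 5 were 69.95%, 74.5%, 77.9% and 85.3%, so the groups overlapped. The means were 82.6% ± 5.45 (SD, n = 4) and 76.9% ± 6.46 (n = 4), a difference of -5.72 percentage points (2-sided exact permutation test, p = 0.2, adjusted p = 0.25). The smallest p that 4 against 4 libraries allow is 0.0286.

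As a share of all cells, members ranged from 3.35% in Intact 3 to 44.0% in Intact 4, and from 3.56% in Contra 3 to 26.3% in Contra 5. The means were 32.0% ± 19.3 and 13.3% ± 10.5, a difference of -18.65 percentage points (2-sided exact permutation test, p = 0.171, adjusted p = 0.25). Leaving out Intact 3, which had far fewer epidermal cells than the other Intact libraries, gave -28.2 points (exact permutation p = 0.0571). That is the smallest p the test can give with this library left out. Leaving out Contra 3, the lowest Contra library, gave -15.39 points (exact permutation p = 0.286). Libraries with the replicate numbers 1 and 3 gave -18.45 points and the others -18.85. Such shares depend on how much epidermis came into the suspension.

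**Figure D4:**
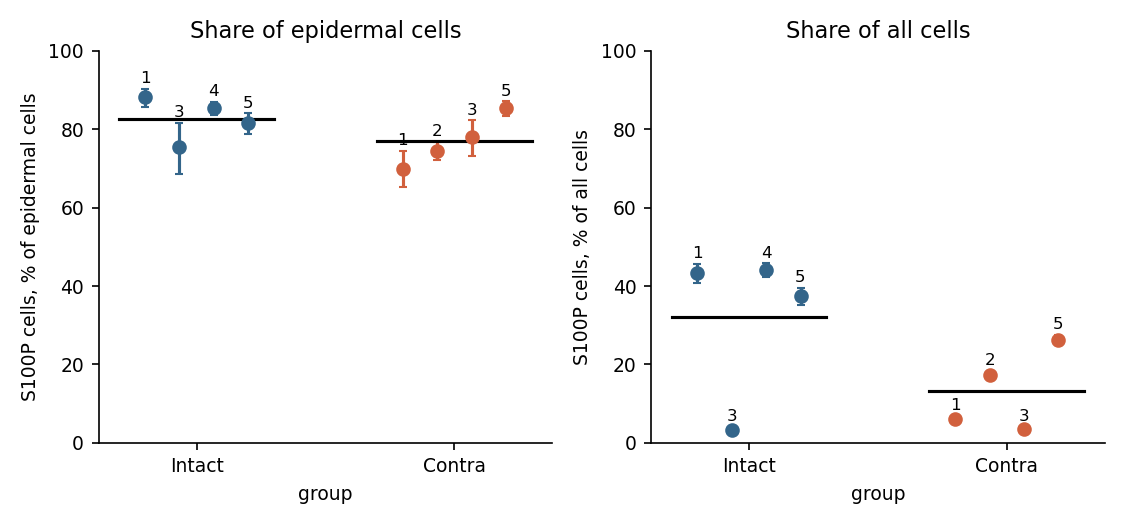
S100P cells as a percentage of epidermal cells (left) and of all cells (right) in each library, numbered by replicate; bars are 95% exact intervals of counting error and black lines are group means. The groups overlap on both scales, with means of 82.6% and 76.9% on the left and 32.0% and 13.3% on the right.

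Gene expression in S100P cells was then compared between Contra and Intact libraries, with TMM factors of the members' libraries alone, so that scaled CPM below differ from those above by a factor per library. No gene passed: 0 of 17218 genes tested (0.0%) had an adjusted p under 0.05 in edgeR's quasi-likelihood test, and 1039 (6.03%) had an unadjusted p under 0.05. DESeq2 called 20 genes (0.116%), 15 of them higher in Contra (0.0871%) and 5 lower (0.029%). A block for the replicate number brought edgeR's count to 23 genes (0.134%), 12 higher (0.0697%) and 11 lower (0.0639%). Intact 4 and Contra 2 have no partner of the same number, so under the block the group difference rested on numbers 1, 3 and 5 alone. This holds for every value with the replicate block below. In data simulated with the same library sizes the test recovered 99% of 4-fold and 56% of 2-fold changes, with 9 false calls. The simulation gave every library 1 pooled profile and the fitted spread for a gene's level. It held no shift shared by many genes of a library, so it may overstate what the test could find here. The difference between the groups was also tested for a difference between the 2 epidermal classes, and 0 of 13682 genes passed, with 406 at an unadjusted p under 0.05.

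The genes with the smallest p are given as not passing the main test. GPM6B, a membrane glycoprotein of the proteolipid family, was at 2.93, 3.23, 3.08 and 1.93 scaled CPM in Intact 1, 3, 4 and 5 and at 11.6, 10.7, 7.20 and 10.2 in Contra 1, 2, 3 and 5. The groups did not overlap, and the log2 fold change was 1.83 ± 0.23 (SE, adjusted p = 0.188, 0.0543 with the replicate block and 8.14e-07 with DESeq2). Groups were separate in this direction for 2.3% of genes tested, and in the other for 1.52%. OLFML3, a secreted matrix protein (log2 fold change 1.84, adjusted p = 0.486, 0.00107 with DESeq2), was also separate. So was TWIST1, a mesenchymal transcription factor (adjusted p = 0.486, 0.0981 with DESeq2). Members of Intact 1, 3, 4 and 5 held 5, 2, 8 and 2 UMIs of TWIST1. It reached the filter through Contra, so no fold is given for it.

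These 3 genes are abundant in connective cells. In CPM without TMM scaling, GPM6B averaged 414 in connective cells of Contra and 10.2 in members, OLFML3 674 and 8.78, and TWIST1 176.5 and 2.46. Connective markers as a whole summed to 723 to 1724 CPM in members of Intact libraries and to 1492 to 2031 CPM in those of Contra. COL3A1, a gene of the rule, lay between 25.8 and 217 CPM in Intact members and between 203 and 401 CPM in Contra members, while it averaged 20120 and 20902 CPM in connective cells of the same groups. Their part in the result was not tested.

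UMOD and CCL19 were not abundant in connective cells. UMOD (AMEX60DD005679, 1 of 25 identifiers with this symbol) carries the name of the mammalian urinary protein uromodulin. It was at 0.976, 0.808, 0.373 and 0.387 scaled CPM in Intact 1, 3, 4 and 5. In Contra 1, 2, 3 and 5 it was at 10.8, 9.05, 63.5 and 67.65. The Intact members held 8, 2, 4 and 2 UMIs, so the gene passed the filter through Contra and no fold is given. Its adjusted p was 0.324, 9.52e-04 with the replicate block and 1.52e-11 with DESeq2. Few cells carried it: 37 Contra members held 926 UMIs and 15 Intact members 16. Single cells gave 39 of the 42 UMIs in Contra 1, 57 of 122 in Contra 2, 235 of 238 in Contra 3 and 299 of 524 in Contra 5. The share of members with a UMI overlapped between the groups, from 0.213% to 1.44% in Intact and from 1.2% to 1.53% in Contra. In connective cells of Contra it averaged 0.356 CPM, and in the remaining cells of Contra 3.35 CPM.

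CCL19 (AMEX60DD041527), a chemokine that guides lymphocytes and dendritic cells in mammals, was at 13.1, 21.0, 25.6 and 11.99 scaled CPM in the Intact libraries and at 48.1, 62.5, 126.7 and 55.6 in the Contra libraries. The groups did not overlap, and the log2 fold change was 2.02 ± 0.35 (adjusted p = 0.486, 9.52e-04 with the replicate block and 1.51e-04 with DESeq2). Its UMIs were also concentrated, with 264 Contra members holding 1935 UMIs and up to 342 in a single cell. In other epidermal cells it averaged 7.05 CPM in Intact and 31.8 CPM in Contra. The remaining cells averaged 35.8 and 64.05 CPM of it, connective cells 2.49 and 2.29 CPM, and members 17.6 and 74.5 CPM. The part of other cells in the difference was not tested.

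EFEMP1, a secreted matrix protein, and DENND2B, a guanine nucleotide exchange factor, were called both with the replicate block and by DESeq2. EFEMP1 was at 19.2, 26.3, 32.8 and 29.2 scaled CPM in Intact 1, 3, 4 and 5 and at 52.2, 42.6, 53.9 and 62.1 in Contra 1, 2, 3 and 5, a log2 fold change of 0.97 ± 0.18 (adjusted p = 0.486, 0.023 with the block and 0.0112 with DESeq2). DENND2B was at 8.42 to 21.7 in the Intact libraries and at 32.2 to 46.7 in the Contra libraries, a log2 fold change of 1.26 ± 0.26 (adjusted p = 0.529, 0.04 with the block and 0.0215 with DESeq2). Without TMM scaling, connective cells averaged 407 CPM of EFEMP1 and 288 CPM of DENND2B, against 40.5 and 28.1 CPM in members. On the same scale other epidermal cells averaged 105.6 and 103.1 CPM, and the remaining cells 171.3 and 170.5 CPM. DESeq2 also called VCAN (log2 fold change 1.60), CXCL12 and ADAMTS5 (1.2), which edgeR did not. Members of Intact 1, 3, 4 and 5 held 6, 6, 9 and 2 UMIs of CXCL12. It reached the filter through Contra, so no fold is given for it. VCAN, CXCL12 and ADAMTS5 averaged 677, 195 and 432 CPM in connective cells against 6.90, 2.36 and 6.26 CPM in members. Their part in these differences was not tested.

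The genes lower in Contra with the smallest p were at low levels. NPM1 (AMEX60DD046728, 1 of 10 identifiers with this symbol), a nucleolar chaperone, was at 10.5 to 14.9 scaled CPM in the Intact libraries. In the Contra libraries this identifier was at 6.93 to 7.87, a log2 fold change of -0.84 ± 0.16 (adjusted p = 0.486, 0.0347 with DESeq2). SLC16A9, a member of the monocarboxylate transporter family, was at 27.9 to 38.0 and at 17.5 to 22.5 (-0.75, adjusted p = 0.486, 0.00967 with DESeq2). CHK1 (AMEX60DD021668, -0.78), C17ORF67 (-1.41) and ECRG4 (-0.79) had adjusted p of 0.579, 0.59 and 0.59. All of these but C17ORF67 were separate between the groups, which a choice by smallest p favours.

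**Figure D5:**
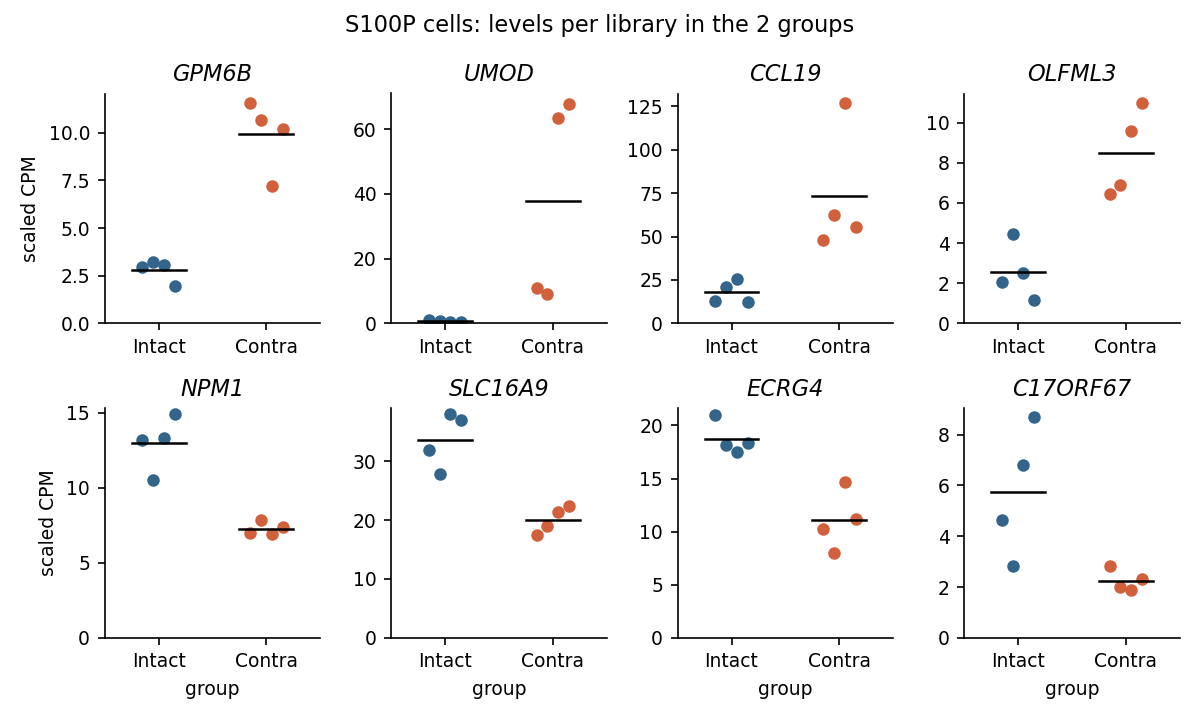
Scaled CPM in S100P cells of each Intact and Contra library for 8 of the 10 genes named for the smallest p in each direction, with black lines at group means. That choice favours separate groups. The groups are separate for 7 of these genes and overlap for C17ORF67, and no gene passed the main test. Among all genes tested, 2.3% were separate with Contra higher and 1.52% with Contra lower.

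Keratins of the rule were described between the groups. KRT5 (AMEX60DD029823) was at 1933, 2557, 2997 and 2532 scaled CPM in Intact 1, 3, 4 and 5 and at 863, 1014.3, 1513 and 1738 in Contra 1, 2, 3 and 5. All Contra values lay below all Intact values, as they did for 1.52% of all genes tested. As a gene of the rule it is given with no test. KRT12 (AMEX60DDU001020666) lay between 17985 and 23194 scaled CPM in Intact and between 19687 and 27351 in Contra, and KRT76 between 6726 and 11864 and between 5677 and 9960. KRT15 lay between 8092 and 11160 in Intact and between 6754 and 8625 in Contra.

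Lists that set S100P cells apart were not called between the groups. Of 11 other keratins tested, 7 had an unadjusted p under 0.05, where 6.03% of all genes tested did. The median log2 fold change of these 11 was -0.50, and 0 passed. KRT4 was at 1542, 720, 541 and 769 scaled CPM in Intact 1, 3, 4 and 5 and at 686, 395, 376 and 407 in Contra 1, 2, 3 and 5 (-0.94 ± 0.34, adjusted p = 0.813), and KRT18 gave -0.77 (adjusted p = 0.813). The groups overlapped for both. UPK1B gave -0.48 (adjusted p = 0.86) and TP63 0.02 (adjusted p = 0.996). The share of members with G2 and M phase transcripts was 73.8% ± 6.07 in Intact and 73.8% ± 1.78 in Contra (2-sided exact permutation test, p = 1).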

How the data were processed

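The deposited values are raw UMI counts, whole numbers for each gene in each cell, from 10x 3' libraries sequenced as 100 bp reads per the labels' protocols. The submitters' processing notes name kallisto 0.48.0 and Seurat 4.2.0 without a role; the genome build, annotation, strand setting and cell filter are not given in the sources used here. The deposited cells hold at least 450 genes, and 289 with fewer than 500 were left out. A gene's symbol is the last name before its identifier.

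Members and gene lists were chosen with earlier results of these data known. Counts were summed per library and class (at least 20 cells each) and tested with edgeR 4.0.16 in R 4.3.3 (filterByExpr, TMM, quasi-likelihood, Benjamini-Hochberg at 0.05). Genes of the rule entered the fits across all genes, but no test of them is given. Shares were compared by exact permutation over libraries in scipy 1.17.1. Named genes between classes were the 15 highest and 15 lowest fold changes reaching 20 CPM with one direction in every library, plus the most abundant list members; between groups, the 5 smallest p per direction. Some genes this rule names are not reported here. Scrublet in scanpy 1.11.5 called 98 cells (0.289%) and so did not work; doublets were not removed, and an alternative left out the 1361 highest scores. On data simulated from 1 pooled profile the class comparison recovered 86% of 2-fold and 100% of 4-fold changes over 13682 genes, with 12 false calls. The group comparison recovered 56% and 99% over 17218, with 9 false calls.

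Same-numbered Intact and Contra libraries deviated together (correlations 0.156, 0.105 and 0.248 for numbers 1, 3 and 5), so the replicate block is given beside the count of genes between groups. Differently numbered libraries also correlated, up to 0.475 for Intact 4 with Contra 5 and 0.265 for Intact 1 with Contra 3, so the numbers are a weak ground for pairing. No other pairing is stated in the labels. DESeq2 1.42.0, other thresholds, other scalings and left-out libraries were alternatives.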

Additional observations from a re-analysis of the deposited data

Results flagged for a closer look

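In the 4 Intact libraries, members made up 3.35% of all cells in Intact 3, far below the others, of which the lowest had 37.4%. KRT12 (AMEX60DDU001020666) was at 23194 scaled CPM in members of Intact 1, above the other Intact libraries, of which the highest had 18572. KRT5 (AMEX60DD029832), a minor KRT5 identifier, was at 277.7 scaled CPM in members of Intact 3 and at most 9.69 in the other Intact libraries. The gaps to the nearest library were 0.838, 0.887 and 0.966 of the group's range. Of 52 groups of 4 libraries examined, 3 were flagged, and chance alone flags about 1 in 20.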

How the results depend on the processing

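The differences in member share kept their sign and stayed past no threshold under every alternative run. Leaving out 1 library at a time gave -8.51 to -3.40 percentage points of epidermal cells and -28.2 to -14.65 points of all cells; the replicate block gave -4.02 points (exact permutation p = 1) and -16.0 points (p = 0.5) over 3 pairs. The G2 and M difference between classes was 5.54 to 7.73 points with a library left out, 1.28 with 4000 UMIs drawn and -6.79 without TUBB4B. Between groups it was 0.0364 points and changed sign to -3.43 with 1000 UMIs drawn, -1.03 without TUBB4B, -0.292 without drawing and -0.684 at S100P of at least 0.2%, and ran from -2.67 to 2.04 with a library left out; none passed a test. The depth difference was 1694 to 2555 UMIs with a library left out and 4336 at S100P of at least 0.2%. The count of genes between classes was 8965 to 10256 with a library left out, 2391 against cells with no S100P UMI (4 libraries could be fitted) and 923 at matched ribosomal share. Between groups it was 0 with any library left out, 230 with no filter on low counts, 23 with the replicate block and 20 with DESeq2. Without TMM scaling DSG2 changed to -0.11, KLF5 to -0.068, ABCA12 to -0.12, MCM2 to -0.32 and SMC4 to -0.46; JAG1 changed to 0.0066 with no filter and PRR16 to 0.15 against cells with no S100P UMI. The causes were not tested. The 1329 other epidermal cells at a median of 4057 UMIs limit low genes most.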

Other observations

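A small set of members carried transcripts of acid-base transport. Of 5853 members, 26 held UMIs of at least 3 of the genes SLC26A4, ATP6V1G3, ATP6V1B1 and TMEM213, which were chosen after values were seen, while 5684 held none. SLC26A4 is an anion exchanger, and ATP6V1G3 and ATP6V1B1 are subunits of the proton pump that acid-secreting cells of kidney and inner ear use in mammals. The choice of cells fixes that they hold most UMIs of these genes. FOXI1 (AMEX60DD030372), a transcription factor of such cells in mammals, had 115 CPM in them, from 35 UMIs in 14 cells, and 0.253 CPM in the other members. A second FOXI1 identifier, AMEX60DD046138, went the other way, with 0 and 2.20 CPM. The anion exchanger gene SLC4A1 had 773 and 2.78 CPM. TP63 was at 9.83 and 215 CPM. KRT12 (AMEX60DDU001020666) was at 15687 and 20804 CPM, and S100P took a median of 0.321% and 0.32% of UMIs. The median keratin share was 1.47% and 3.88%, nearer to the 1% limit of the rule in the 26 cells. Of the 26 cells, 2 were among the highest doublet scores, against 1.78% of all members. They numbered 1, 0, 5 and 1 in Intact 1, 3, 4 and 5 and 3, 5, 2 and 9 in Contra 1, 2, 3 and 5. Cells meeting the same condition were also found outside the epidermal rule, with 103 among 10995 remaining cells and 10 among 15683 connective cells. SLC26A4 (AMEX60DD007472), TMEM213 and ATP6V1G3 were among the 23 genes called between the groups with the replicate block, and neither the main test (adjusted p from 0.813 to 0.816) nor DESeq2 (from 0.851 to 0.986) called them. Members of Intact 1, 3, 4 and 5 held 1, 0, 47 and 1 UMIs of SLC26A4 and 2, 0, 58 and 5 of TMEM213. The groups overlapped for both, with 4.38 and 5.405 scaled CPM in Intact 4 against 3.73 and 2.93 in Contra 3. Intact 4 has no Contra library of its number, so it adds nothing to the group difference under the block.

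Of the genes lower with the replicate block, S100A10 (AMEX60DD054671), PSMB7 and ATP5MC2 fell by 1.74, 1.35 and 1.45 on the log2 scale. Their adjusted p with the block were 0.0105, 0.0209 and 0.0176. Neither the main test (adjusted p from 0.813 to 0.841) nor DESeq2 (from 0.433 to 0.942) called them. They were at 131.5, 188.5 and 130.8 scaled CPM in members of Intact 1, against at most 52.1, 99.8 and 71.1 in the other Intact libraries. The more abundant S100A10 identifier, AMEX60DD014975, gave -0.52 with the block (adjusted p = 0.391). The median ribosomal protein share of members was 7.14% in Intact 1 and at most 4.35% in the other libraries, and its part in these differences was not tested.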
